A study of Homo sapiens with 8 samples.

Results

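The mitochondrial genome has 13 protein-coding genes, and each is counted here as an mRNA. The 6 that encode subunits of respiratory complexes III, IV and V are described by their RNA structure signal. The cells were HEK293T with and without knockdown of TDP-43. Their rows were taken by Ensembl transcript identifier, with no measured value in the rule although earlier results of these data were known, and all 6 were listed among the 38314 transcripts of both deposited tables: MT-CO1 (ENST00000361624), MT-CO2 (ENST00000361739) and MT-CO3 (ENST00000362079) of complex IV, MT-ATP6 (ENST00000361899) and MT-ATP8 (ENST00000361851) of complex V, and MT-CYB (ENST00000361789) of complex III. HEK293T is a human embryonic kidney line, and TDP-43 is a mainly nuclear RNA-binding protein. Cells labelled control (genotype WT) or TDP-43 knockdown were suspended in PBS and treated with 100 mM NAI, which acylates the 2'-hydroxyl of flexible nucleotides, or with 5% DMSO as background, for 15 min at 37 °C, and the method, SHALiPE-seq, reads the modified positions as stops of reverse transcription in poly(A)-selected RNA. The sources used here do not give how the knockdown was made. The 8 libraries form 4 groups of 2 replicates, and the authors deposited 1 combined summary per transcript for each of control and knockdown.

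Each transcript has 4 values per condition. Average, maximum and standard deviation describe reactivity over the positions of the transcript, on a scale that the sources used here do not state. A higher reactivity stands for stronger modification by NAI. It is usually read as more flexible nucleotides, but that reading was not tested here and need not hold at every position. The Gini index describes how unevenly reactivity is spread, from 0, for equal reactivity everywhere, towards 1, for reactivity held by very few nucleotides. The standard deviation is thus a spread along the RNA and not an error. The summaries hold no replicate values and no read counts, so every difference below compares 1 combined value with 1 other, has no replicate check and carries no p-value. Depth, the RNA level of the 6 mRNAs, the remaining TARDBP mRNA and the marker genes of the cell line were not analysed here.

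Mitochondrial mRNAs are copied inside the organelle from long precursors by a dedicated polymerase. They are released mostly by removal of the tRNAs between them, and are in most cases polyadenylated. They carry little or no untranslated sequence and are translated by the organelle's own ribosomes. Complex III passes electrons from ubiquinol to cytochrome c, complex IV passes them on to oxygen, and complex V, the ATP synthase, uses the resulting proton gradient. MT-ATP8 and MT-ATP6 are read from a single mRNA with overlapping frames, although each is counted here as an mRNA.

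The identities were checked against length. RefSeq (GRCh38.p14) places MT-CO1 at chrM:5904-7445, a span of 1542 bases, and 1522 positions entered its averages, as recovered from the digits of the deposited values. MT-CO2 at chrM:7586-8269 had 664 positions of 684 bases, and MT-CO3 at chrM:9207-9990 had 764 of 784. For complex V, MT-ATP8 at chrM:8366-8572 had 187 positions of 207 bases, and MT-ATP6 at chrM:8527-9207 had 661 of 681. MT-CYB at chrM:14747-15887 had 1121 of 1141. Every member was thus short of its annotated length by exactly 20 bases, and so were the 7 mitochondrial mRNAs of complex I used for comparison. Length alone does not name a transcript, since between 7 and 23 transcripts of the tables, the member included, had the same number of positions as a member.

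The 6 mRNAs are not 6 independent measurements. MT-ATP8 and MT-ATP6 share 46 bases, which is 22.2% of MT-ATP8 and 6.75% of MT-ATP6, and MT-ATP6 and MT-CO3 share 1 base. All 6 come from the same libraries. RefSeq also lists 219 nuclear pseudogenes named after these genes, and 104 of them have at least 90% of the length of the mitochondrial gene. MTATP6P1, at chr1:633696-634376, has the same length as MT-ATP6, 681 bases, and their sequences were not compared. How reads that fit both a mitochondrial mRNA and a nuclear copy were assigned is not given in the sources used here, and their part in the values below was not tested.

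Average reactivity was higher in knockdown in 5 of the 6 mRNAs, by small amounts, and close to equal in MT-ATP8. Over all transcripts 49.5% were higher in knockdown. Among other transcripts with control averages in the members' range, compared below, the share was 69.2%. It was 75.3% with positions also held to the members' range. With differences this small and without replicates the count of 5 is a description only. MT-CO1, the catalytic subunit of cytochrome c oxidase, averaged 0.248 in control and 0.279 in knockdown, a ratio of 1.13. MT-CO2, which receives electrons from cytochrome c, had 0.220 in control and 0.226 in knockdown, a ratio of 1.03. MT-CO3, a structural core subunit, had 0.225 and 0.237, a ratio of 1.05. Among the 3 complex IV mRNAs MT-CO1 therefore had both the highest level and the largest difference. MT-ATP6, the membrane subunit that forms the proton path, had 0.241 in control and 0.282 in knockdown, and its ratio of 1.17 was the highest of the 6. MT-ATP8, a small membrane subunit, had 0.214 in control and 0.212 in knockdown, a ratio of 0.990. MT-CYB, the cytochrome b subunit that holds the ubiquinone sites of complex III, had 0.244 in control and 0.276 in knockdown, a ratio of 1.13.

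The 6 averages thus lay in an upper and a lower set, with the same members in both conditions. MT-CO1, MT-CYB and MT-ATP6 lay between 0.241 and 0.248 in control and between 0.276 and 0.282 in knockdown. MT-CO3, MT-CO2 and MT-ATP8 lay between 0.214 and 0.225 in control and between 0.212 and 0.237 in knockdown, in that order both times. Which neighbours in this order differ beyond replicate spread cannot be said from combined values. The distance from the lowest to the highest member was 0.034 in control and 0.070 in knockdown. None of the 6 passed a 1.5-fold difference in either direction, which 15.1% of all transcripts passed upward and 2.39% downward. None passed 1.2-fold either, against 34.7% of all transcripts upward and 27.4% downward.

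**Figure D1:**
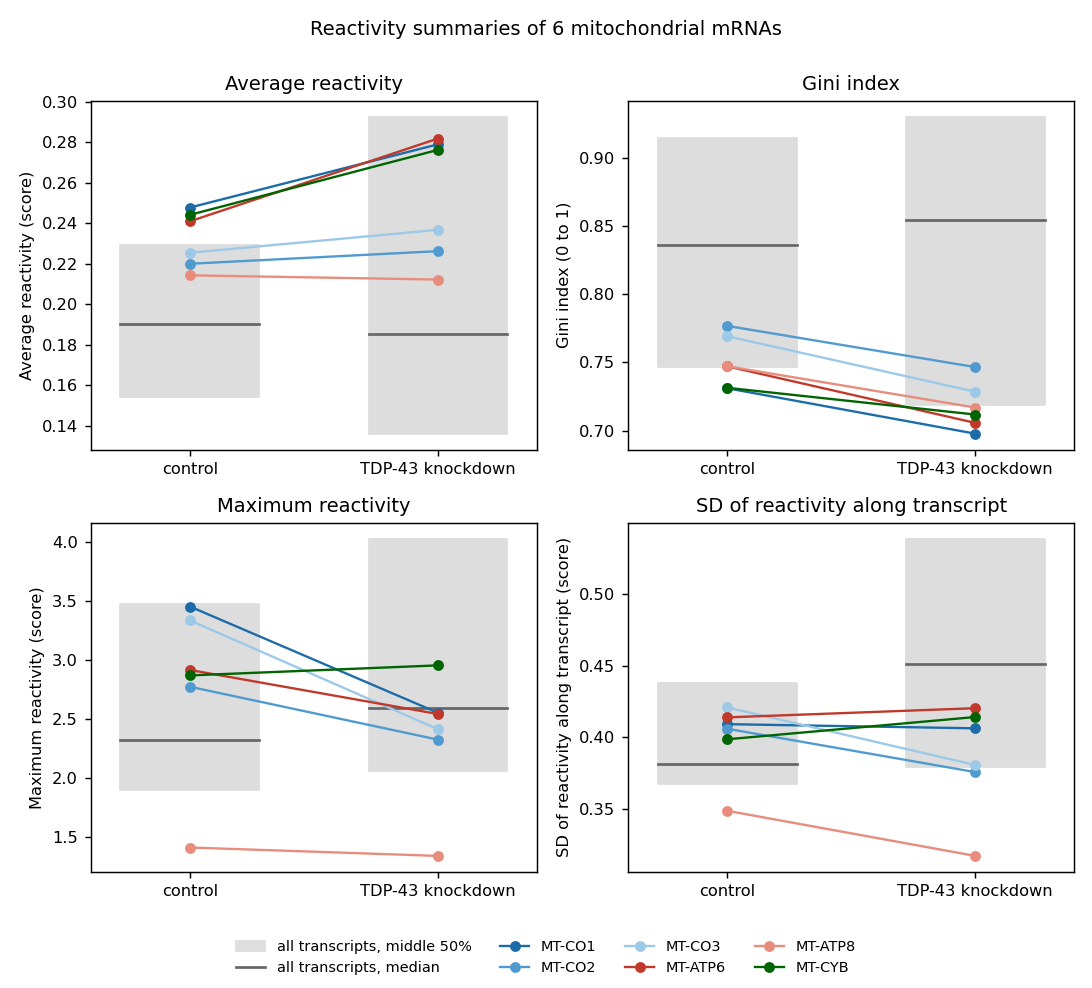
Average reactivity, Gini index, maximum reactivity and standard deviation along the transcript (score or index on the vertical axes) for the 6 mRNAs, with 1 combined value per condition joined by a line and no error bar because no replicate values were used. Grey bands give the middle 50% of all 38314 transcripts and grey lines their median. The Gini lines slope down for all 6 mRNAs, while the median of all transcripts goes from 0.837 in control to 0.855 in knockdown. Of other transcripts with control indices in the members' range, not drawn here, 68.0% were also lower in knockdown.

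The Gini index was lower in knockdown in all 6 mRNAs, that is, their reactivity was spread more evenly over positions. Over all transcripts 36.2% had a lower index in knockdown. Among other transcripts with control indices in the members' range, compared below, the share was 68.0%. It was 75.4% with positions also held to the members' range. MT-ATP6 went from 0.747 in control to 0.706 in knockdown, and MT-CO3 from 0.769 to 0.729, the largest differences of the set at -0.042 and -0.041. These members encode different complexes but lie next to each other in the genome. MT-CO1 went from 0.731 to 0.698, MT-ATP8 from 0.747 to 0.717 and MT-CO2 from 0.777 to 0.747, with differences between -0.033 and -0.030. MT-CYB had the smallest difference, -0.020, from 0.731 to 0.712. Across members the 2 conditions overlapped, since the lowest control index of 0.731 lies below the highest knockdown index of 0.747. The median difference was -0.032 in the 6 mRNAs and 0.0072 over all transcripts. Among the transcripts with like control indices it was -0.029, and -0.045 with positions held as well. MT-CO2 was the most uneven of the 6 in both conditions.

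The coefficient of variation, the standard deviation divided by the average, gave the same direction and is free of the scale of the tables. It was lower in knockdown in all 6 mRNAs and in 6 of the 7 complex I mRNAs, against 36.4% of all transcripts. For this coefficient no share at control values like the members' was computed. Of the 6, MT-CO3 showed the largest difference, from 1.87 in control to 1.61 in knockdown. MT-ATP8 showed the smallest, from 1.63 to 1.49, close to MT-CYB with 1.63 and 1.499. This coefficient and the Gini index describe the same property of the same values, so they are not separate evidence. Average and spread together set a lower bound on the share of positions with any reactivity. For MT-ATP6 this bound was 25.3% in control and 31.0% in knockdown, and for MT-CO1 it was 26.8% and 32.0%. The median bound of all transcripts was 17.7% in control and 15.8% in knockdown.

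The most reactive single position was lower in knockdown in 5 of the 6 mRNAs, and within the 6 by the most in complex IV. Over all transcripts 29.4% had a lower maximum in knockdown. MT-CO1 had a maximum of 3.45 in control and 2.55 in knockdown, and MT-CO3 had 3.33 and 2.41, ratios of 0.739 and 0.723. MT-CO2 had 2.77 and 2.32, a ratio of 0.838. MT-CO1 and MT-CO3 were the only members at least 1.2-fold lower, a size reached by 7.31% of all transcripts. In complex V the differences were smaller, with 2.91 in control and 2.54 in knockdown for MT-ATP6 and 1.41 and 1.34 for the short MT-ATP8. MT-CYB went the other way, from 2.87 to 2.95. The tables do not say which position holds the maximum, so it may differ between conditions. None of the 6 reached the ceiling of 7 at which both tables stop.

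Measured against the average, the maximum was lower in knockdown in every member. The maximum was 13.9 times the average in MT-CO1 in control and 9.14 times in knockdown, and 14.8 and 10.2 times in MT-CO3. In MT-CYB it was 11.7 and 10.7 times, and in MT-ATP8 6.58 and 6.31 times, the smallest difference of the 6. The quotient was lower in all 6, against 40.1% of all transcripts, with a median ratio of 0.780 in the 6 mRNAs and 1.08 over all. In complex I it was lower in 6 of 7, with a median ratio of 0.829. No share at control values like the members' was computed for the quotient. MT-ATP8, with the lowest quotient of the 6 in both conditions, also has the fewest positions, 187.

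The standard deviation along the transcript divided the members. It was lower in knockdown in 4 of the 6, against 44.9% of all transcripts. Among other transcripts with control values in the members' range the share was 33.1%, and 38.2% with positions held to their range as well. That comparison was added after the values were seen. The median control value of the transcripts behind the 33.1% was 0.372, below that of every member but MT-ATP8. The 3 complex IV mRNAs were among the 4, with 0.421 in control and 0.381 in knockdown for MT-CO3, 0.406 and 0.376 for MT-CO2, and 0.409 and 0.406 for MT-CO1. MT-ATP8 was the fourth, at 0.349 and 0.317. MT-ATP6 and MT-CYB were slightly higher in knockdown, at 0.414 and 0.420 and at 0.399 and 0.414. This division rests on the deposited scale. With each table divided by its median all 6 were lower in knockdown, and by percentile MT-ATP8 alone stood higher.

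Put together, 5 of the 6 mRNAs were higher on average and more even, a combination found in 30.9% of all transcripts. MT-ATP8 was more even at nearly the same average. A lower maximum on top of these was found in 4 mRNAs, namely MT-CO1, MT-CO2, MT-CO3 and MT-ATP6, and in 7.78% of all transcripts. The combination was put together after the values of the members were seen. In these 4 mRNAs the reactivity summed over all positions was higher in knockdown although the largest single value was lower. Of the 7 complex I mRNAs, compared below, 5 were higher on average and more even, and 4 also had a lower maximum. The shares of these combinations among transcripts with control values like the members' were not computed.

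**Figure D2:**
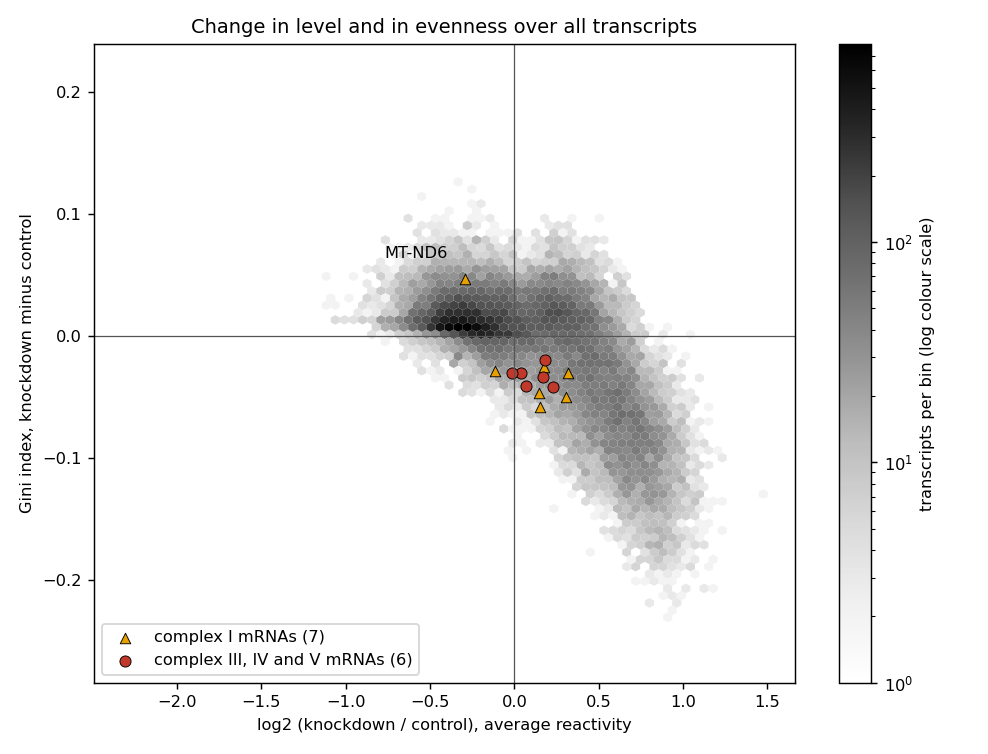
The log2 ratio of average reactivity, knockdown over control (horizontal), against the difference in Gini index, knockdown minus control (vertical), with all transcripts as grey bins on a log colour scale, the 6 mRNAs of complexes III, IV and V as red circles and the 7 of complex I as yellow triangles. The 6 red points lie together below 0 on the vertical axis, between -0.042 and -0.020, and MT-ND6 stands apart at the upper left.

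The place of the members among all transcripts of the same table does not change with a factor common to that table. It would change with a scaling made per transcript, and the sources used here do not give the scaling. By place, the averages stood lower in knockdown. MT-CO1 lay at percentile 85.0 in control and 73.1 in knockdown, and MT-CYB at 83.3 and 72.7. MT-ATP6 lay at 81.6 and 73.5. MT-CO3, MT-CO2 and MT-ATP8 lay at 73.0, 69.8 and 65.0 in control and at 65.2, 62.9 and 59.2 in knockdown. So all 6 were above the middle of both tables, and all 6 stood lower in the knockdown table, in which averages spread more widely. For average reactivity the direction of the difference therefore depends on whether values or places are compared.

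For the maximum, places and values mostly pointed the same way. MT-CO3 went from percentile 73.4 in control to 42.8 in knockdown, MT-CO1 from 74.8 to 48.5 and MT-CO2 from 63.9 to 38.8, so the complex IV mRNAs crossed the middle of the table. MT-ATP6 crossed it as well, from 66.9 to 48.1, whereas MT-CYB went from 66.0 to 60.2. MT-ATP8 stayed near the bottom, at 1.53 and 1.80. For the standard deviation MT-CO3 stood at percentile 71.2 in control and 25.7 in knockdown, MT-CO2 at 66.7 and 23.9, and MT-CO1 at 67.8 and 34.5. MT-ATP6 stood at 69.3 and 39.2, MT-CYB at 63.5 and 37.2, and MT-ATP8 at 1.12 and 6.41. For the Gini index the members stayed below the middle of both tables, between percentile 20.0 and 33.4 in control and between 22.0 and 29.5 in knockdown.

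**Figure D3:**
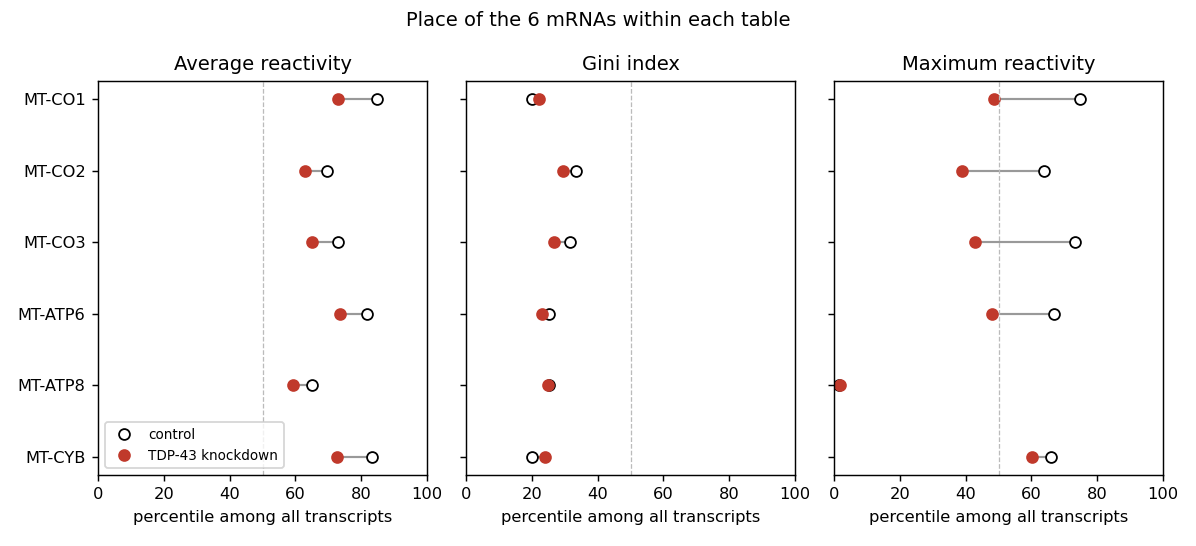
Percentile of each of the 6 mRNAs among all transcripts of the same table (horizontal, 0 to 100) for average reactivity, Gini index and maximum reactivity, with open circles for control and red circles for knockdown. In the left panel every red circle lies left of its open circle, and in the right panel the 3 complex IV mRNAs and MT-ATP6 pass from above to below the dashed line at 50.

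Transcripts that started from similar control values were set beside the members, a comparison added after the values were seen. Of 7635 other transcripts with a control average within the members' range of 0.214 to 0.248, 69.2% had a higher average in knockdown and the median ratio was 1.24. All 6 members lay below that median, between MT-ATP8 with 29.9% and MT-ATP6 with 44.1% of these transcripts beneath its ratio. All 6 ratios, the 0.990 of MT-ATP8 included, lay inside the middle 50% of these transcripts, which ran from 0.941 to 1.54. With positions also held to the members' range of 187 to 1522, the middle 50% of 5109 transcripts ran from 1.004 to 1.60, and MT-ATP8 lay below it. For the Gini index, 68.0% of 5145 other transcripts that started between 0.731 and 0.777 were lower in knockdown, with a median ratio of 0.961. The members' ratios ran from 0.944 to 0.973, around that median. With positions held to the same range the median ratio was 0.940, and all 6 members lay above it, with 51.5% to 63.5% of 3758 transcripts beneath them. For the maximum, MT-CO1 and MT-CO3 had low places among transcripts that mostly started lower. Of 28072 other transcripts with a control maximum between 1.41 and 3.45, 30.8% had a lower one in knockdown, and the ratios of MT-CO1 and MT-CO3 lay above those of 2.42% and 1.93% of them. With positions held as above, these shares were 2.04% and 1.52%. Both members lie at the upper end of the range of 1.41 to 3.45, while the median control maximum of the 28072 transcripts was 2.09. The shares therefore cannot say whether transcripts that started as high fell as far, which was not tested.

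The nearest relatives in the data are the 7 mitochondrial mRNAs of complex I, the NADH dehydrogenase, of which all but MT-ND6 are encoded on the same strand as the 6. No test of a difference between the lists could be made, so their values are set side by side. Average reactivity was higher in knockdown in 5 of 7, with a median ratio of 1.11 against 1.09 in the 6 mRNAs and 0.994 over all transcripts. The Gini index was lower in 6 of 7, with a median difference of -0.030 against -0.032. The maximum was lower in 5 of 7, with a median ratio of 0.955 against 0.855. The maximum in control also had a lower median in complex I, 2.10 against 2.89. Falls of at least 1.2-fold in the maximum were found in 2 of the 7, as in 2 of the 6. MT-ND4L went from 1.66 in control to 1.21 in knockdown, a ratio of 0.728, and MT-ND3 had a ratio of 0.810. MT-ND5 and MT-ND6 went the other way, with ratios of 1.04 and 1.10.

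MT-ND4 and MT-ND5 exceeded every one of the 6 mRNAs in their ratio of averages, at 1.24 and 1.25. MT-ND6 differed from all other mitochondrial mRNAs in its Gini index, which was 0.672 in control and 0.719 in knockdown, and its averages were 0.285 and 0.233. MT-ND6 is the only mRNA encoded on the opposite strand of the mitochondrial genome. MT-ND4L, at 277 positions, had averages of 0.218 in control and 0.201 in knockdown, and like MT-ATP8 it is short and overlaps the frame of the next gene. MT-ND3 is also short, at 326 positions, but its average was higher in knockdown, at 0.233 in control and 0.258 in knockdown.

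**Figure D4:**
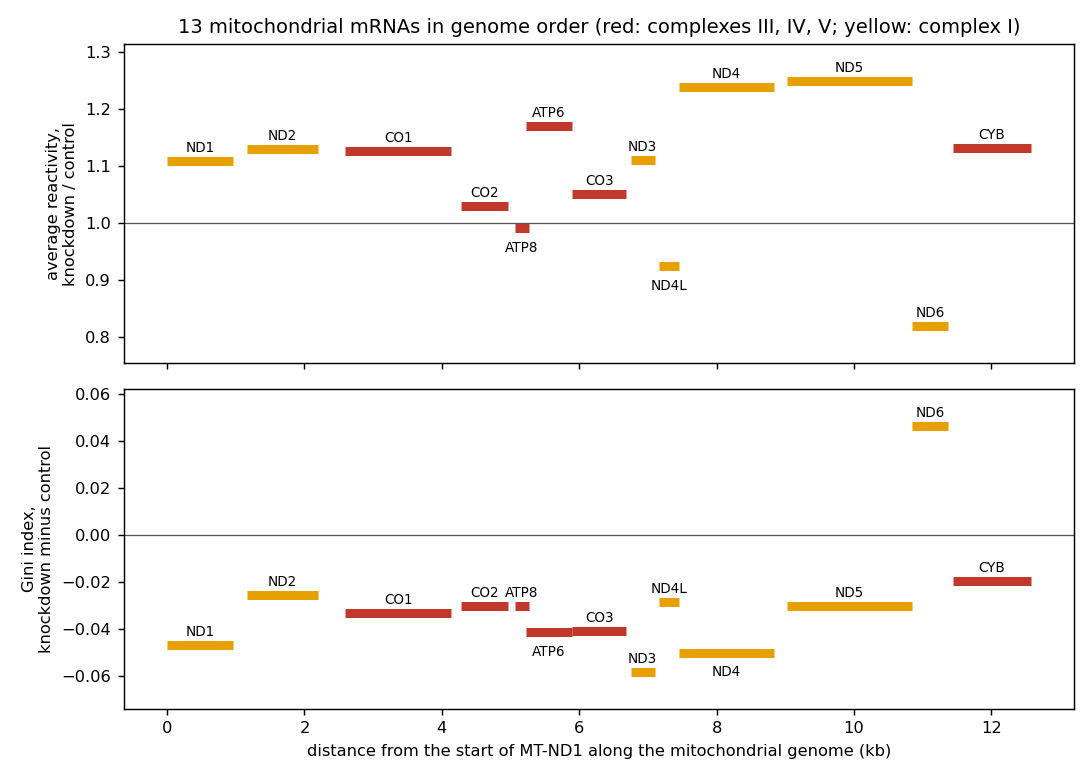
Ratio of average reactivity, knockdown over control (upper panel), and difference in Gini index, knockdown minus control (lower panel), for the 13 mitochondrial mRNAs, each drawn as a bar as long as the gene at its distance in kb from the start of MT-ND1. Red bars are complexes III, IV and V and yellow bars complex I, with 1 combined value per condition. The bars for ATP8, ND4L and ND6 lie below a ratio of 1, and ND6 is the only bar above 0 in the lower panel.

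Across the 13 mRNAs the ratio of averages was higher in the longer ones, where Pearson's r against the number of positions was 0.72 and Spearman's rho 0.74. The points share libraries and in 3 pairs also sequence, so this is a description without a p-value. Within the 6 mRNAs alone the same relation was looser, with an r of 0.63 and a rho of 0.37, since MT-ATP6 with 661 positions had a higher ratio than MT-CO1 with 1522. The ratios of the neighbours MT-CO2, MT-ATP8, MT-ATP6 and MT-CO3, in genome order, were 1.03, 0.990, 1.17 and 1.05, with no steady run along the genome. MT-ATP8 and MT-ATP6, which share an mRNA, thus had the lowest and the highest ratio of the 6, while both had a control Gini index of 0.747.

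For each member the most similar transcript outside the set was found by distance over average, standard deviation and Gini index in both conditions. For MT-CO1 it was ENST00000514057.1, with averages of 0.237 in control and 0.279 in knockdown, and its 661 positions equal the number of MT-ATP6. For MT-CO3 it was ENST00000387347.2, with 0.226 and 0.244 over 1538 positions, and for MT-CYB ENST00000565777.1, with 0.245 and 0.284 over 1293. In each of these 3 cases another member was closer still. The closest to MT-CO2 was ENST00000487431.1, with 0.215 and 0.223 over 765 positions, and the closest to MT-ATP6 was ENST00000363064.1, with 0.245 and 0.276 over 57. MT-ATP8 was least like its group. The closest transcript was ENST00000575692.1, with 0.219 and 0.215 over 935 positions, and 1816 transcripts were closer to it than any other member. The tables do not pair these identifiers with genes.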

How the data were processed

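RNA structure was probed in 8 libraries, 2 each of control and TDP-43 knockdown with NAI or DMSO. Per the submitters' processing notes, cutadapt 1.15, Bowtie2 2.3.3.1 and the build hg38 were used. The sources used here do not give how reactivities were computed and scaled, nor the annotation or coverage filters. Per the file headers, the authors' tables, 1 per condition, hold the average, maximum and standard deviation of reactivity (a score) and the Gini index (a fraction). The word combined in the headers was taken to mean both replicates, with NAI set against DMSO, and the prefix of the knockdown columns is unexplained.

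Values were used as deposited. Positions were the smallest number for which average and Gini index gave whole sums in thousandths in both tables, and the number was exact in 94.5% of 200 simulated transcripts. Percentiles are over all 38314 transcripts. No test was possible. The nuclear-encoded subunit lists were not analysed here because no table pairs identifiers with symbols, and no sequence of the 6 mRNAs was used here. Complex I identifiers come from general knowledge of the Ensembl annotation and were checked by length. All 6 mRNAs were named by rule, as was the most similar transcript of each. Members, lists and comparisons were chosen with earlier results of these data known. Alternatives were division by the table median, percentiles, other backgrounds, other folds, a pseudocount of 0.01 and omission of MT-ATP8. Python 3.11.15, numpy 2.4.6, pandas 2.3.3 and matplotlib 3.10.9 were used.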

Additional observations from a re-analysis of the deposited data

How the results depend on the processing

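With each table divided by its median, MT-ATP8 turned to a higher scaled average in knockdown (0.018), so that 6 members were higher. The maximum of MT-CYB (-0.097) and the standard deviations of MT-ATP6 (-0.154) and MT-CYB (-0.128) turned lower, leaving 0 members higher in either measure. On this setting, returned to the control scale, the median difference went to -0.666 (maximum) and -0.073 (standard deviation). By percentile among all transcripts, 0 members had a higher average, with a median change of -7.97 and changes of -11.9 in MT-CO1, -6.88 in MT-CO2, -7.84 in MT-CO3, -8.10 in MT-ATP6 and -10.6 in MT-CYB. The Gini index then stood higher in 2 members, MT-CO1 (2.03) and MT-CYB (3.85). The standard deviation stood higher in 1, MT-ATP8 (5.29), and lower in MT-ATP6 (-30.1) and MT-CYB (-26.3). The maximum stood lower in MT-CYB (-5.85) and higher in MT-ATP8 (0.275). Without MT-ATP8 the median difference in standard deviation was -0.0029. The share of background transcripts with a higher average, 49.5%, became 54.5% with at least 500 positions, 54.3% without the ceiling, 64.0% without the lowest 25% by level, and 69.2% and 75.3% at control values like the members', without and with a limit on positions. For the Gini index these last shares were 32.0% and 24.6%. The causes were not tested. No paired analysis was possible because the replicates were combined before deposit, which also kept any replicate from being left out.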
